A study of Mus musculus with 8 samples.

Results

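Purinergic receptors are cell-surface proteins that respond to nucleotides and nucleotide sugars outside the cell. Expression of 6 of their genes (P2rx1, P2rx4, P2rx7, P2ry1, P2ry12 and P2ry14) was followed in mouse bone marrow progenitors with and without a Cre-driven deletion of Cbfb, the gene of the subunit that steadies Runx transcription factors on DNA. The 6 genes were chosen by their group values on these same arrays, namely the differences between KO and Het and between the populations, so those levels and differences are a description and carry no test. Each had 1 transcript cluster (the probes that the array assigns to 1 gene) with exactly 1 gene symbol, so 6 of the 21789 such rows, and 6 of 19938 genes, are described.

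Bone marrow of mice aged 7 weeks, backcrossed to C57BL6, was sorted into LSK cells (the stem and early progenitor fraction) and GMP cells (progenitors of granulocytes and macrophages), with a purity above 98%. The knockout (KO) genotype was Vav1-iCre x Cbfb(F/F), with 2 floxed alleles, and the control (Het) was Vav1-iCre x Cbfb(F/+), with 1 floxed and 1 intact allele. All groups therefore carried the same Cre, which the Vav1 promoter drives in blood cells, and no group had 2 intact alleles. Each population of each genotype was measured on 2 arrays, from 2 mice of each genotype, which makes 4 groups. All values are the authors' log2 expression values, every mean ± SD is over n = 2 arrays, and the 2 arrays are given in the order of their replicate numbers.

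P2X receptors are channels that open when ATP binds, and P2Y receptors couple to G proteins. In platelets, ADP acts through P2Y1, which raises calcium through Gq, and P2Y12, which acts through Gi, while ATP opens P2X1. P2X7 needs high ATP and is known in myeloid cells as a trigger of the NLRP3 inflammasome, and P2X4 is an ATP channel of the plasma membrane and lysosomes. P2Y14 responds to UDP-glucose and related sugars and has been used as a marker of primitive blood progenitors.

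Over the rows with 1 gene symbol, array medians lay between 4.92 and 5.09, Pearson correlation was 0.990 to 0.995 within groups and 0.955 to 0.983 between them. Cbfb stood at 7.56 in Het LSK and 6.96 in KO LSK, a difference of -0.60 that missed the threshold (limma, adjusted p = 0.0557), whereas from Het GMP (7.59) to KO GMP (6.72) it fell by 0.86 (limma, adjusted p = 0.013). Of 6 tested markers of LSK, 3 fell in KO LSK (Mecom by 2.47, Procr by 2.27 and Hlf by 1.11), Slamf1 rose by 2.40, and Kit and Cd34 did not pass and stood above 10 in both LSK groups (limma, median of the 6 differences -0.68); Ly6a was not analysed here. In KO GMP, 1 of the same 6 LSK markers rose and 0 fell. The marker that rose was Slamf1, by 3.42 (limma adjusted p = 7.78e-05), and the median of the 6 differences was 0.26. The mean level of the 6 LSK markers ran from 6.002 to 6.05 in Het GMP and from 6.68 to 6.78 in KO GMP. All 7 markers of GMP stood above the array median in all 4 groups. Their mean levels were 10.996 to 11.35 in the GMP groups and 7.52 to 8.09 in the LSK groups. RMA sets all arrays to a common distribution. When each array's median was subtracted, the differences between GMP and LSK in Het shifted by 0.16 and those of the interaction by 0.14. With that scaling, the share of called rows that were higher went from 39.0% to 52.4% for KO against Het in LSK, from 73.7% to 58.4% for the interaction and from 45.1% to 67.1% for GMP against LSK in Het. With 2 arrays a group, the smallest p of an exact permutation test is 0.333. Replicates are labelled as biological, although no label says which mouse gave which array, and the p-values of limma rest on the spread between replicate arrays.

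Promoter sequence was read because Cbfb acts through Runx factors at DNA. In addition, 4 of the genes (P2rx1, P2rx7, P2ry1 and P2ry14) stood far apart between the genotypes in at least 1 population. Runx1, the gene of 1 such factor, rose in KO by 1.53 in LSK (limma adjusted p = 0.000448). In GMP it rose by 1.47 (limma adjusted p = 0.000694). Its part in the receptor values was not tested. RefSeq windows of 250 bases before a start site (GRCm38.p6) were found for 6 of 6 genes, 10 windows in all, since P2rx7 has 2 starts and P2ry14 has 4. The RUNX motif was searched only as the exact letters TGTGGT, on both strands (reverse complement ACCACA). These letters were in 0 of the 10 windows, and in 14.05% of all 32851 windows of the same length. Other forms of the motif were not counted, and the P2rx4 window, which is not shown, holds ACCGCA, the reverse complement of TGCGGT. The GATA motif, also only as the exact letters AGATAA (reverse complement TTATCT), was in 4 of the 10, in P2rx1, P2rx7 and P2ry14. It was in 9.99% of all windows. The 2 motifs share no overlapping letters in these windows, and a match, or the lack of one, in a window says nothing about binding. The windows below are written 5′ to 3′ on the strand of the gene, with the motif in capitals. They show the genes that held a GATA match, P2ry1, which held none, and P2ry13, a related receptor gene beside P2ry14 that held a RUNX match. The window of Med12l, the gene whose interval holds P2ry14 and P2ry13, held neither motif and is not shown.
P2rx1, chr11:72998895-72999144, plus strand: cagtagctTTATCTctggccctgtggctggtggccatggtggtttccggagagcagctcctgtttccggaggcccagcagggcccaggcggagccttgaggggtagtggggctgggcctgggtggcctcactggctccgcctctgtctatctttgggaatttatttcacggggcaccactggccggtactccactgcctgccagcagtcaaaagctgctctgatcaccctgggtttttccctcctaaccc
P2rx7, second start, chr5:122650133-122650382, plus strand: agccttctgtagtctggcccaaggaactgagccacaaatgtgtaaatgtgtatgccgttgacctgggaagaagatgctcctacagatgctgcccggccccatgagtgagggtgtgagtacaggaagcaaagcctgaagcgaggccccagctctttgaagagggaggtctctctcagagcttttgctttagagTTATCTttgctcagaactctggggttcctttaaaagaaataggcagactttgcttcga
P2ry1, chr3:61002535-61002784, plus strand: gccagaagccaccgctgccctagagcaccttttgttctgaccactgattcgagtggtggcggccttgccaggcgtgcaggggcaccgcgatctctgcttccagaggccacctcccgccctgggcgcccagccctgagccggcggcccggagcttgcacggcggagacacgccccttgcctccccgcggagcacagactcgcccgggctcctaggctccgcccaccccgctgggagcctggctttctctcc
P2ry14, first start, chr3:59153493-59153742, minus strand: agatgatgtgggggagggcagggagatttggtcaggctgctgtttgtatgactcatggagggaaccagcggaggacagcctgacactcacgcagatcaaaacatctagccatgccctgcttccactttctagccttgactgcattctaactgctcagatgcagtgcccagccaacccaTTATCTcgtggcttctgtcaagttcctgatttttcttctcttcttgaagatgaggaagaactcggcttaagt
P2ry13, chr3:59210883-59211132, minus strand: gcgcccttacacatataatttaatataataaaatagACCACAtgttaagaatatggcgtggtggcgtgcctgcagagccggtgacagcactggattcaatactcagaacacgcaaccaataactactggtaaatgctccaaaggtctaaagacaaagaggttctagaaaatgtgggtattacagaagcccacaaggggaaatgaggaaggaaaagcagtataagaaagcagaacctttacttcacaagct
The match lay 242 bases before the start in P2rx1, 58 in P2rx7, 72 in P2ry14 and 214 in P2ry13. The other match of P2ry14 lay 216 bases before its second start.

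P2rx1, the ATP channel known from platelets, was higher in KO than in Het in both populations. It measured 6.18 and 6.37 in Het LSK (6.27 ± 0.13) and 8.12 and 7.57 in KO LSK (7.85 ± 0.39). In GMP it measured 5.82 and 5.40 in Het (5.61 ± 0.30) and 7.33 and 7.37 in KO (7.35 ± 0.03). All 4 KO arrays lay above all 4 Het arrays. The difference was 1.57 (SE 0.20) in LSK, or 2.97-fold, and 1.75 (SE 0.20) in GMP, or 3.36-fold. The order from low to high was Het GMP, Het LSK, KO GMP, KO LSK, and no neighbours in that order overlapped.

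P2rx7 was high in KO LSK and nowhere else. It measured 9.27 and 7.49 in KO LSK (8.38 ± 1.26), against 5.76 and 5.60 in Het LSK (5.68 ± 0.12), 5.82 and 5.75 in Het GMP (5.79 ± 0.05) and 6.14 and 5.40 in KO GMP (5.77 ± 0.52). Both KO LSK arrays lay above the other 6, yet they differed from each other by more than any other pair of replicates of the 6 genes. The difference between KO and Het was 2.70 (SE 0.47) in LSK, or 6.50-fold, and -0.02 (SE 0.47) in GMP. Het LSK, KO GMP and Het GMP overlapped in their order. The LSK difference was 1.81 without KO LSK replicate 1 and 3.59 without KO LSK replicate 2. In the reference P2rx7 and P2rx4 are next to each other on chromosome 5.

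P2rx4 did not follow its neighbour. It measured 7.08 and 7.43 in Het LSK (7.25 ± 0.25), 7.81 and 6.86 in KO LSK (7.34 ± 0.68), 6.87 and 6.92 in Het GMP (6.90 ± 0.04) and 6.68 and 6.08 in KO GMP (6.38 ± 0.42). The LSK groups overlapped, with a difference of 0.08 (SE 0.30), whose sign turned without Het LSK replicate 1 (-0.10) or KO LSK replicate 1 (-0.40). In GMP the Het arrays were the higher ones, without overlap, and the difference between KO and Het was -0.52 (SE 0.30). The KO LSK array with the higher P2rx7 value also had the higher P2rx4 value, and so did the KO GMP array. In Het LSK and in Het GMP the array with the higher P2rx7 value had the lower P2rx4 value.

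P2ry1, the Gq-coupled ADP receptor, was highest in KO GMP. It measured 5.82 and 5.54 in Het LSK (5.68 ± 0.19), 6.27 and 6.05 in KO LSK (6.16 ± 0.15), 5.68 and 5.65 in Het GMP (5.66 ± 0.02) and 6.96 and 7.42 in KO GMP (7.19 ± 0.33). The Het groups of the 2 populations overlapped, and the KO groups lay above them and apart from each other. The difference between KO and Het was 0.48 (SE 0.18) in LSK and 1.53 (SE 0.18) in GMP, or 2.88-fold. The GMP effect minus the LSK effect was 1.05 (SE 0.25).

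P2ry12, the Gi-coupled ADP receptor, lay near the lower end of the scale on every array. It measured 3.23 and 3.09 in Het LSK (3.16 ± 0.10), 3.59 and 3.54 in KO LSK (3.57 ± 0.04), 2.86 and 2.96 in Het GMP (2.91 ± 0.08) and 3.43 and 3.24 in KO GMP (3.34 ± 0.13). Its group means stood between the 16.8th and the 27.7th percentile of the tested rows, where no level is shown to be expression. All 4 KO arrays lay above all 4 Het arrays, but the lowest KO array (KO GMP, 3.243) barely exceeded the highest Het array (Het LSK, 3.231). The group means differed by 0.41 (SE 0.12) in LSK and 0.43 (SE 0.12) in GMP.

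P2ry14, the UDP-sugar receptor, was the receptor gene with the widest gap between the populations of the control. It measured 7.996 and 7.97 in Het LSK (7.98 ± 0.02) and 5.36 and 5.33 in Het GMP (5.34 ± 0.02), a difference of -2.64 (SE 0.16). In KO it measured 8.24 and 8.11 in LSK (8.18 ± 0.09) and 6.98 and 7.47 in GMP (7.22 ± 0.34), a difference of -0.95 (SE 0.16). KO stood above Het by 0.20 (SE 0.16) in LSK and by 1.88 (SE 0.16) in GMP, or 3.68-fold, so the GMP effect exceeded the LSK effect by 1.68 (SE 0.23). From low to high the order was Het GMP, KO GMP, Het LSK, KO LSK, without overlap between neighbours.

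**Figure D1:**
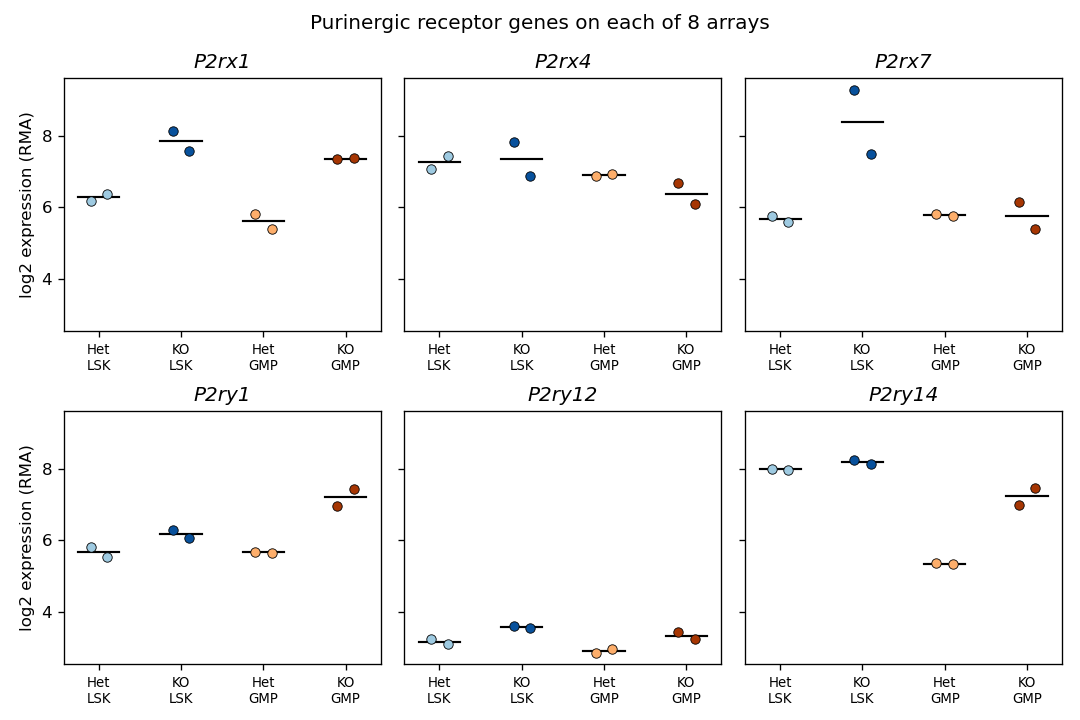
Log2 expression (RMA, vertical axis) of 6 purinergic receptor genes in Het LSK, KO LSK, Het GMP and KO GMP; points are the 2 arrays of a group and bars their mean. P2rx1 is higher in KO in both populations, P2rx7 in KO LSK (9.27 and 7.49), P2ry1 in KO GMP, and P2ry14 is lowest in Het GMP (5.36 and 5.33).

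Set side by side, 5 of 6 genes were higher in KO LSK than in Het LSK without overlap (P2rx4 overlapped), where 22.8% of all tested rows were, and 0 were lower without overlap, against 22.7%. In GMP 4 of 6 were higher without overlap, against 23.4% of all rows, and P2rx4 was lower, against 27.9%. Past limma's threshold (adjusted p under 0.05 over all tested rows) were P2rx1 and P2rx7 in LSK, against 3.02% of all rows called higher, and P2rx1, P2ry1 and P2ry14 in GMP, against 3.45%. Between GMP and LSK in Het, 4 genes were lower without overlap, against 28.2% of all rows, and 0 were higher, against 29.7%; P2rx7 and P2ry1 overlapped. P2ry14 was past the threshold there, against 9.6% of all rows called lower, and no gene was on the higher side, against 7.9%. Between GMP and LSK in KO, P2ry1 was higher without overlap, against 21.5% of all rows, and the other 5 genes were lower, against 26%. There P2rx7 and P2ry14 were past the threshold on the lower side, against 2.39%, and P2ry1 on the higher side, against 3.66%; 6.05% of all rows were called in either direction, and 17.5% in Het. In the interaction P2ry14 was past it, against 1.69% of all rows called higher, 0.601% lower and 2.29% in either direction. Since these contrasts chose the genes, nothing is read from these counts. The same holds for the changes of call below, which are no check of the genes. P2rx7 in LSK was no longer past the threshold without Het LSK replicate 2, or when rows without a single symbol were tested too, 35556 in all. With all rows tested, P2ry14 in the interaction and P2rx7 and P2ry1 between GMP and LSK in KO were not past it either. P2ry12 in LSK was past the threshold with array medians subtracted (0.49). P2rx1 between GMP and LSK in Het (-0.67) was past it with limma's trend and with only rows above the median level. P2rx4 between GMP and LSK in KO differed by -0.96, and by -1.43 without KO LSK replicate 2. Between GMP and LSK in KO, P2ry14 was not past it without KO GMP replicate 1, nor were P2rx7 and P2ry1 without KO GMP replicate 2. In the interaction P2rx7 differed by -1.82 without KO LSK replicate 1 and by -3.61 without KO LSK replicate 2. There P2ry1 differed by 1.28 without KO GMP replicate 1. The median difference of the 6 genes was 0.44 in LSK and 0.98 in GMP, beside 0.01 and -0.02 over all tested rows. The LSK and GMP comparisons share no array, while each interaction value rests on all 8. With 2 mice of each genotype the LSK and GMP comparisons can share animals, so they cannot be taken as independent.

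The genes differed in which other genes followed them over the 8 arrays. Among 1780 genes with an SD of at least 0.5, Pearson correlation over the 8 arrays was highest for P2rx1 with Gng11, a G protein gamma subunit gene (0.992), Slc41a3 (0.992) and Rnf180 (0.991). For P2rx7 it was highest with Stard9 (0.980), Igf1, the growth factor gene (0.957), and Pkib (0.946). For P2ry1 the leading genes were Alox12, the platelet 12-lipoxygenase gene (0.974), Mdm1 (0.970) and Serpina3b (0.969). For P2ry14 they were Nlrc3 (0.993), Naprt (0.992) and Cdc42bpa (0.992), and for P2ry12 they were Aspa (0.983), Dach1 (0.974) and Otos (0.974). P2rx4 had looser partners in Gm10384 (0.926), Adamts6 (0.884) and Pik3ip1 (0.857). The 8 arrays form 4 groups, so each value describes a pattern of group means as much as of arrays. Among the 6 genes themselves, the correlation was highest between P2rx1 and P2ry12 (0.915) and lowest between P2rx4 and P2ry1 (-0.614).

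Stard9, which had the pattern closest to that of P2rx7, measured 8.35 and 6.75 in KO LSK and between 4.72 and 5.58 on the other 6 arrays. Igf1 measured 6.04 and 4.85 in KO LSK, and Pkib 6.29 and 5.96. For all 3, as for P2rx7, KO LSK replicate 1 was the highest of the 8 arrays. Alox12, closest to P2ry1, measured 6.79 and 7.16 in KO GMP and at most 4.58 elsewhere.

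**Figure D2:**
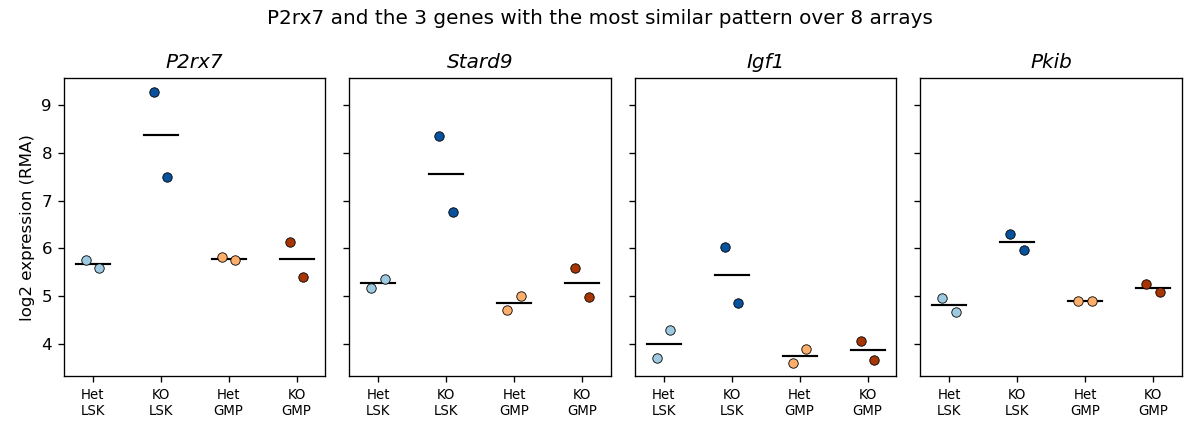
Log2 expression (RMA, vertical axis) of P2rx7 and of the 3 genes most correlated with it, by group; points are the 2 arrays of a group and bars their mean. In each panel the 2 KO LSK arrays are the highest, and they lie farther apart for P2rx7 (9.27 and 7.49) and Stard9 (8.35 and 6.75) than for Pkib (6.29 and 5.96).

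P2ry14 and P2ry12 share a place in the genome. In the reference both lie on chromosome 3 inside the interval of Med12l, a Mediator subunit gene, with Gpr171 and P2ry13 also inside; P2ry1 is on the same chromosome outside it. The start sites of P2ry12, P2ry13 and P2ry14 lie on the minus strand and that of Med12l on the plus strand, and no source used here says how far the labelling kept strands apart. Med12l was 6.80 and 6.91 in Het LSK, 7.32 and 6.76 in KO LSK, 4.67 and 4.83 in Het GMP and 7.11 and 7.18 in KO GMP. It rose in KO GMP by 2.40 (SE 0.18, limma adjusted p = 9.75e-05) and differed by 0.19 in LSK (limma adjusted p = 0.651), and the 2 effects differed (limma adjusted p = 0.00388). P2ry13, an ADP receptor gene, was 6.03 and 6.08 in Het LSK, 6.31 and 6.11 in KO LSK, 4.73 and 4.65 in Het GMP and 6.87 and 6.29 in KO GMP. It rose in KO GMP by 1.89 (SE 0.18, limma adjusted p = 0.000408), differed by 0.16 in LSK (limma adjusted p = 0.718), and its 2 effects differed (limma adjusted p = 0.0104, and 0.0558 without Het GMP replicate 2). For Med12l, P2ry14 and P2ry13 alike, both Het GMP arrays were the lowest of the 8.

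Gpr171, an orphan receptor gene of the same interval, had another pattern. It was 9.49 and 9.72 in Het LSK, 7.70 and 7.54 in KO LSK, 7.21 and 7.28 in Het GMP and 6.66 and 6.82 in KO GMP. It fell in KO LSK by 1.98 (SE 0.13, limma adjusted p = 5.6e-05) and differed by -0.50 in GMP (limma adjusted p = 0.0684, and under the threshold with array medians subtracted, 0.0423). Over the 8 arrays the correlation with P2ry14 was 0.910 for Med12l, 0.795 for P2ry13, 0.760 for P2ry12 and 0.461 for Gpr171, and Med12l ranked 208 among the 1780 genes compared.

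**Figure D3:**
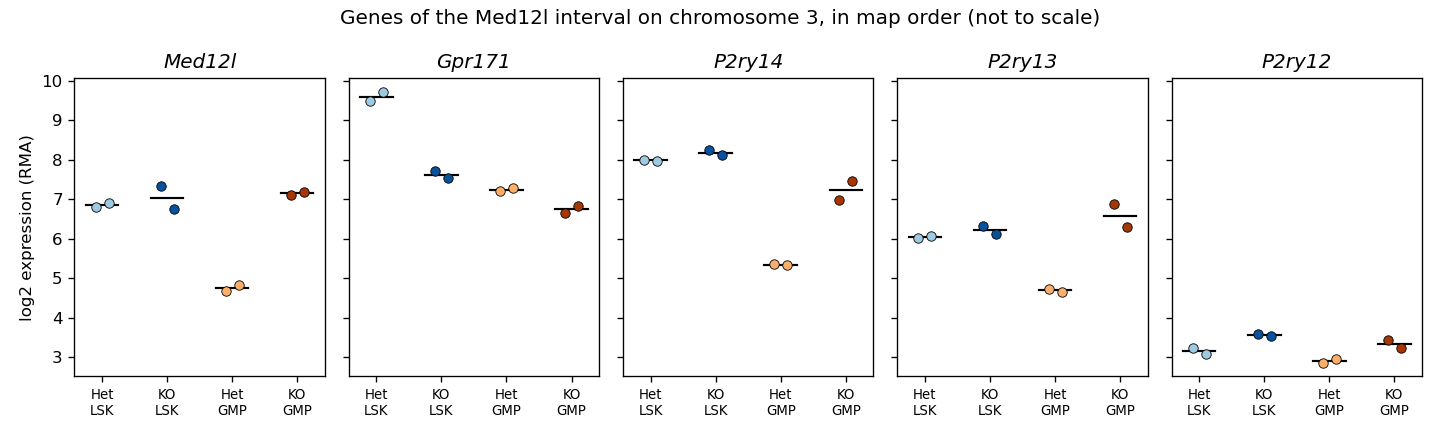
Log2 expression (RMA, vertical axis) of 5 genes of the Med12l interval on chromosome 3, in map order, by group; points are the 2 arrays of a group and bars their mean. Med12l, P2ry14 and P2ry13 are lowest in Het GMP (4.67 and 4.83, 5.36 and 5.33, 4.73 and 4.65), Gpr171 is highest in Het LSK (9.49 and 9.72) and P2ry12 stays below 4 throughout.

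Around the 6 genes, the 2 nearest protein-coding genes on each side gave 18 neighbours outside the set, of which 16 were tested. In LSK 3 of the 16 fell, against 4.71% of all tested rows: Gpr171, Ift81 beside P2rx7 and P2rx4 (by 0.86, limma adjusted p = 0.00662) and Igsf10 beside P2ry12 (by 0.71, limma adjusted p = 0.0426). In GMP 2 of the 16 rose, Med12l and P2ry13, against 3.45% of all tested rows. Of the neighbours of P2rx1, Atp2a3 (0.55, limma adjusted p = 0.0941) did not pass in LSK, but did with array medians subtracted (limma adjusted p = 0.0423). The calls of Igsf10 and Ift81 were lost without single arrays: Ift81 without Het LSK replicate 2 (limma adjusted p = 0.0548), and Igsf10 without any array but KO LSK replicate 1 (limma adjusted p from 0.0685 to 0.239 for those lost).

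The other genes of the pathway were taken from lists drawn up by role, with earlier results of these data known. The shares below are therefore a description, and nothing is read from them about the pathway as a whole. Each listed gene stands at its row with the highest mean, while the share of all tested rows counts every row, dim ones too. Of 68 listed genes 57 were tested. In LSK 12 of the 57 passed (21.1%), 5 higher and 7 lower in KO, against 7.73% of all tested rows (3.02% higher and 4.71% lower). In GMP 10 passed (17.5%), 6 higher and 4 lower, against 6.02% of all tested rows (3.45% and 2.57%). The median difference of the 57 genes was 0.04 in LSK and 0.06 in GMP, beside 0.01 and -0.02 over all tested rows.

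Among the 9 other P2 receptor genes, which the choice of the 6 left out, 1 passed in each population, in LSK downward and in GMP upward (P2ry13, above). P2ry10, a lysophosphatidylserine receptor gene, was 3.49 and 4.36 in Het LSK and 2.09 and 2.38 in KO LSK, and fell by 1.69 (SE 0.25, limma adjusted p = 0.00364). In GMP it stood below 2 on all 4 arrays, under the 5th percentile of the tested rows (2.24), where no level is shown to be expression. P2ry2, a receptor for UTP and ATP, differed by 0.85 in LSK (SE 0.29, limma adjusted p = 0.132) and did not pass, although both KO arrays (7.01 and 6.21) lay above both Het arrays (5.93 and 5.58). It passed without KO LSK replicate 2 (limma adjusted p = 0.0336). P2rx2, P2rx3, P2rx5, P2rx6, P2ry4 and P2ry6 differed by at most 0.32 in size in either population and did not pass. The 4 adenosine receptor genes were not analysed here.

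Of 14 tested genes of ADP signalling in platelets, 4 rose in LSK and the same 4 rose in GMP. Rap1b, the small GTPase that activates platelet integrins, rose by 0.85 in LSK (SE 0.12, limma adjusted p = 0.00335) and by 1.14 in GMP (SE 0.12, limma adjusted p = 0.000744). Pik3cb, the gene of the PI3-kinase p110-beta, rose by 1.13 and 0.72, and Gnaq, the Gq alpha subunit gene through which P2Y1 signals, by 0.72 and 0.90 (limma adjusted p from 0.00046 to 0.0148 for these 4 values). Rgs18, a restraint on G protein signalling in platelets, rose by 0.64 in LSK (limma adjusted p = 0.0103) and by 1.42 in GMP (limma adjusted p = 0.000159). The interaction for Rgs18 passed narrowly (0.79, limma adjusted p = 0.0479) and did not pass with array medians subtracted (limma adjusted p = 0.0984). Gnai2, the Gi alpha subunit gene through which P2Y12 signals, differed by -0.15 and -0.16 and did not pass.

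Of 6 genes of nucleotide release, 2 fell in LSK and 1 in GMP. Gja1, the connexin 43 gene, fell by 1.51 in LSK (SE 0.19, limma adjusted p = 0.00141), from 5.44 and 5.36 to 4.04 and 3.72, and by 1.21 in GMP (SE 0.19, limma adjusted p = 0.00573), from 5.49 and 5.06 to 4.26 and 3.88. Panx1, the pannexin channel gene, fell by 0.56 in LSK (SE 0.13, limma adjusted p = 0.034) and differed by -0.27 in GMP. With array medians subtracted Panx1 in LSK did not pass (limma adjusted p = 0.0846).

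Of 9 tested ectonucleotidase and NAD ectoenzyme genes, 1 fell in each population. Bst1, the CD157 gene, fell in LSK by 0.99 (SE 0.17, limma adjusted p = 0.00869), from 4.45 and 3.99 to 3.12 and 3.34. Acpp, the prostatic acid phosphatase gene, whose enzyme can turn AMP into adenosine, fell in GMP by 1.19 (SE 0.12, limma adjusted p = 0.000504). It was 4.82 and 4.64 in Het GMP, below the medians of those arrays (4.93 and 4.92). In KO GMP it was 3.53 and 3.55, in the lower part of the scale. Entpd1, the CD39 gene, whose enzyme breaks down ATP and ADP, differed by 0.03 in LSK and 0.11 in GMP, and Nt5e, the CD73 gene, by -0.07 and 0.23.

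Of 7 genes of adenosine transport and breakdown, LSK had 1 that rose and 2 that fell, and GMP had 1 of each. Adk, the adenosine kinase gene, rose from 7.11 and 7.04 to 8.56 and 8.50 in LSK (1.46, SE 0.12, limma adjusted p = 0.000133) and from 7.44 and 7.25 to 7.95 and 8.002 in GMP (0.63, SE 0.12, limma adjusted p = 0.0152). The nucleoside transporter gene Slc29a3 fell by 0.63 in LSK (limma adjusted p = 0.018) and by 0.53 in GMP (limma adjusted p = 0.047). Slc28a2, a concentrative nucleoside transporter gene, fell by 0.76 in LSK (limma adjusted p = 0.0358) and did not with array medians subtracted (limma adjusted p = 0.0591).

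Of 7 genes around the P2X7 inflammasome, 1 fell in LSK. Il18, the gene of a cytokine that the inflammasome releases, was 6.61 and 6.62 in Het LSK and 3.996 and 3.03 in KO LSK. It fell by 3.11 (SE 0.27, limma adjusted p = 0.000162), in the population where P2rx7 was high. In GMP 0 of the 7 passed limma's adjusted threshold (1 higher and 3 lower at an unadjusted p under 0.05, and 0 with limma's trend), and the largest differences were those of Nlrp3 (-0.56) and Il18 (-0.52). Of 5 tested genes of UDP-sugar supply, 0 passed in LSK (0 also at an unadjusted p under 0.05, and 0 with limma's trend), where Slc35d1 (0.26) and Ugdh (-0.21) differed most. In GMP Ugdh, the UDP-glucose dehydrogenase gene, fell by 0.76 (SE 0.12, limma adjusted p = 0.00657), and Ugp2, the gene of the enzyme that makes UDP-glucose, differed by -0.01.

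**Figure D4:**
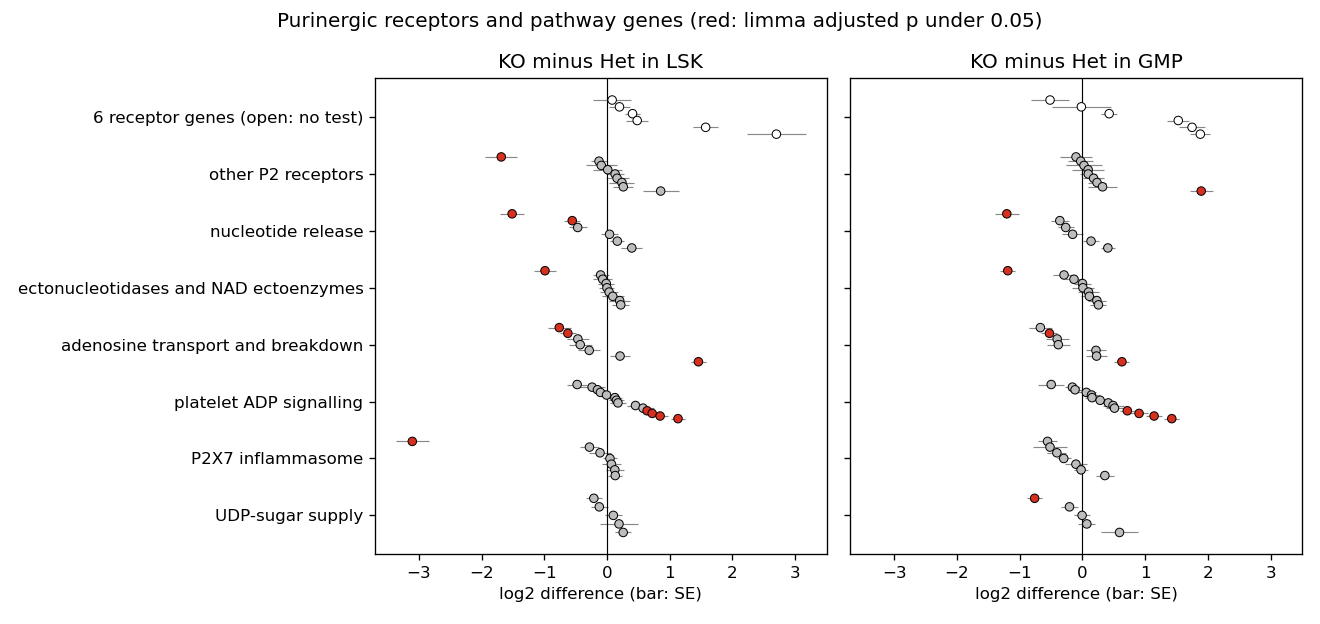
Log2 difference between KO and Het (horizontal axis; bars are limma's SE) in LSK and GMP for the 6 receptor genes and 7 lists of pathway genes; each point is 1 gene red points passed at a limma adjusted p under 0.05, and open points are the 6 receptor genes, shown with no test. Most pathway genes lie near 0, with P2ry10 (-1.69) and Il18 (-3.11) far to the left in LSK and P2ry13 (1.89) far to the right in GMP.

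Several of these calls did not pass in every fit with 1 array left out. Where that array is outside the 2 groups compared, only limma's shared spread and the adjustment change. For LSK, without Het LSK replicate 1 limma's adjusted p rose to 0.154 for Panx1, 0.0567 for Bst1, 0.112 for Slc29a3, 0.0689 for Slc28a2, 0.108 for Gnaq and 0.0784 for Rgs18. Without Het LSK replicate 2 limma's adjusted p was 0.125 for Panx1, 0.0644 for Slc29a3 and 0.208 for Slc28a2. Without KO LSK replicate 1 it was 0.122 for Panx1, 0.137 for Slc28a2 and 0.0627 for Gnaq, and without KO LSK replicate 2 it was 0.0768 for Slc29a3 (limma). Without either Het GMP array, which the LSK comparison does not use, Panx1 and Slc28a2 did not pass. Their differences stayed at -0.56 and -0.76. For GMP, without Het GMP replicate 1 limma's adjusted p was 0.0573 for Gja1, 0.0629 for Gnaq, 0.0531 for Pik3cb and 0.226 for Slc29a3. Without Het GMP replicate 2 it was 0.128 for Adk, 0.0628 for Pik3cb, 0.194 for Slc29a3 and 0.0628 for Ugdh (limma). Without KO GMP replicate 1 it was 0.0786 for Adk, 0.0685 for Pik3cb and 0.102 for Slc29a3, and without KO GMP replicate 2 it was 0.12 for Adk, 0.0577 for Gja1, 0.0574 for Gnaq, 0.288 for Slc29a3 and 0.0748 for Ugdh (limma). Without either Het LSK array, which the GMP comparison does not use, Slc29a3 in GMP did not pass, and its difference stayed at -0.53. Of the pathway calls, 6 of 12 in LSK and 4 of 10 in GMP passed with each of the 8 arrays left out in turn, among them P2ry10, Il18, Adk, Gja1, Pik3cb and Rap1b in LSK and P2ry13, Acpp, Rap1b and Rgs18 in GMP.

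Markers of other cells moved in the same comparisons, in which 7.73% of all tested rows passed in LSK and 6.02% in GMP. Of 8 tested megakaryocyte and platelet markers, 3 rose and 1 fell in KO LSK (median 0.50) and 7 rose in KO GMP (median 3.001), and their mean level ran from 5.22 to 5.53 in Het GMP and from 8.07 to 8.29 in KO GMP. Of 8 monocyte and macrophage markers, 4 fell in KO LSK (median -0.92) and all 8 fell in KO GMP (median -1.79), with mean levels of 7.53 to 7.61 in Het GMP and 5.08 to 5.85 in KO GMP. Of 6 B cell markers all 6 fell in KO LSK (median -3.12), with mean levels of 7.31 to 7.82 in Het LSK and 4.73 to 5.21 in KO LSK. Of 7 mast cell and basophil markers 2 rose and 1 fell in KO LSK (median 0.51), while 2 rose and 3 fell in KO GMP (median -0.27), and the group means of Fcer1a lay between 2.13 and 2.47. Of 6 T and NK cell markers, 3 fell in KO LSK (Thy1, Nkg7 and Klrd1, median of the 6 differences -1.32) and Nkg7 fell in KO GMP (median 0.07). The T cell genes Cd3g and Cd3d had group means between 2.45 and 3.15. Among 7 mature neutrophil markers 0 passed in LSK or GMP (limma, medians -0.44 and -0.57). Their mean level ran from 7.99 to 9.66 in Het LSK. Among 5 erythroid markers 2 fell in KO LSK, and 1 rose and 1 fell in KO GMP. Among 5 dendritic cell markers 2 rose and 2 fell in KO LSK, and 1 rose and 1 fell in KO GMP. Among 6 endothelial and stromal markers 1 rose and 1 fell in KO LSK, and 2 rose and 1 fell in KO GMP. Fewer cells of a type and less RNA per cell cannot be told apart in sorted bulk samples, and the part of these cells in the receptor values was not tested.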

How the data were processed

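The 8 arrays were of the Affymetrix Mouse Gene 1.0ST design. The authors deposited log2 expression after RMA, per the submitters' processing notes; no source used here gives the software, its version or the genome build. RMA (robust multi-array average) gives no detection call, and a dim gene's change is understated. Of 35556 rows, 21789 carried exactly 1 gene symbol in the platform annotation, 1621 several and 12146 none. With several rows per gene, the row with the highest mean stood for it.

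Differences were fitted with limma (3.58.1, R 4.3.3), 1 mean per group over all 8 arrays (4 residual and 4.83 prior degrees of freedom), two-sided, with Benjamini-Hochberg adjustment over the 21789 rows in every contrast, at a threshold of 0.05. SE is limma's. The fit was tested on simulated data. The 6 genes and all lists were chosen with earlier results of these data known. Named genes were those passing (up to 4 per list), otherwise the 2 largest differences, the 3 genes most correlated with each member, and the 2 nearest protein-coding genes on each side in RefSeq (GRCm38.p6), used for names and order. Alternatives were array medians subtracted, all rows tested, a filter on dim rows, limma's trend, a replicate block, only the arrays compared, the lowest row per gene and each array left out. Deviations of same-numbered arrays correlated between -0.143 and 0.179 over the 6 pairs of groups (0.133 between the Het populations, 0.179 between the KO populations). The labels do not say that a number marks a mouse, so the numbers were not taken to pair the arrays.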

Additional observations from a re-analysis of the deposited data

Results flagged for a closer look

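For 6 pathway genes the effect of KO in GMP differed from that in LSK by limma's interaction test. P2ry13 differed by 1.74 (0.16 in LSK and 1.89 in GMP, limma adjusted p = 0.0104), and P2ry10 by 1.78 (-1.69 in LSK and 0.09 in GMP, limma adjusted p = 0.0403). On every GMP array P2ry10 lay under the 5th percentile of the tested rows (2.24), where a fall could hardly be measured. Il18 differed by 2.59 (-3.11 and -0.52, limma adjusted p = 0.00953), and Acpp by -1.19 (-0.00 and -1.19, limma adjusted p = 0.00895). Adk differed by -0.83 (1.46 and 0.63, limma adjusted p = 0.0444), and Rgs18 by 0.79 (0.64 and 1.42, limma adjusted p = 0.0479). Each of these 6 calls was lost when at least 1 array was left out.

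For 4 others both KO arrays lay on one side of both Het arrays in LSK and on the other side in GMP. Panx3 differed by 0.39 in LSK and -0.16 in GMP (interaction -0.55), Ada by -0.28 and 0.23 (interaction 0.51), Gnai3 by 0.15 and -0.12 (interaction -0.27), and Slc35d1 by 0.26 and -0.21 (interaction -0.46). The flag itself used no test of the difference, and none of these 4 passed limma's interaction test. Of all tested rows, 22.8% were higher and 22.7% lower without overlap in LSK, and 23.4% and 27.9% in GMP. The share of all rows that changed sides in this way was not counted, so nothing is read from these 4.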

How the results depend on the processing

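Counts below are pathway genes past limma's threshold unless rows are named. When all 35556 rows were tested, 4 were lower in LSK (7 as reported), 0 higher and 1 lower in the interaction (4 and 2), and 0 lower for GMP against LSK in KO (2); rows called were 784 for KO against Het in GMP (1312), 182 for the interaction (499) and 756 for GMP against LSK in KO (1318). With only rows above the median level, 3 were lower in LSK, 2 higher and 1 lower in the interaction, and 4 higher for GMP against LSK in KO (1). With array medians subtracted, 2 were higher in the interaction and 14 for GMP against LSK in Het (7). With limma's trend, 2 were higher for GMP against LSK in KO. With only the arrays compared, 3 were higher and 4 lower in LSK (5 and 7), with 1071 rows called (1684), and 0 lower for GMP against LSK in KO, with 691 rows called. The replicate block left 1 lower in the interaction and moved no other count of calls by more than 1.5 times. With the KO numbers exchanged (chosen after the data were seen), 2 were higher for GMP against LSK in KO.

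With 1 array left out, counts higher ran from 3 to 8 in LSK, 4 to 7 in GMP, 1 to 4 in the interaction, 3 to 9 for GMP against LSK in Het and 1 to 3 in KO. Counts lower ran from 3 to 7, 1 to 6, 0 to 1, 6 to 11 and 0 to 2, and rows called from 994 to 1614, 634 to 1586, 223 to 705, 2078 to 4486 and 579 to 1539.

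Of 469 recomputed differences of the 6 receptor genes, 13 changed sign, in 5 differences of at most 0.18 in size. With 1 array left out, P2ry12 in the interaction ran from -0.073 to 0.11, P2ry1 for GMP against LSK in Het from -0.15 to 0.12, P2rx4 in LSK from -0.40 to 0.56, P2rx1 in the interaction from -0.10 to 0.45, and P2rx7 in GMP from -0.39 to 0.35. With medians subtracted, P2ry12 in the interaction was -0.12 and P2ry1 for GMP against LSK in Het was 0.14. With the replicate block, P2ry2 passed in LSK and between GMP and LSK in KO (limma adjusted p = 0.00925 and 0.00622), Igsf10 in LSK (0.0633), Adk (0.0607) and Rgs18 (0.0713) in the interaction, and Pik3cg (0.0609) and Nlrp3 (0.0589) for GMP against LSK in Het no longer passed, and P2rx7 in the interaction and P2rx1 for GMP against LSK in Het were past the threshold. The cause of these shifts was not tested. Nothing is read from the calls of the receptor genes, which these contrasts chose. The number of arrays limits the precision.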
